A study of Homo sapiens with 24 samples.

Results

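The transcriptomes of A549 cells of biological replicate 2 were compared with those of biological replicate 1, both from batch 2. The 6 libraries were taken from the 24 of the study by their labels, and the K3Q pair was left out on its counts. The labels do not say whether a batch number marks the culture, the RNA, the library or the sequencing. The first 3 were WT, K3R and Ctr of biological replicate 2, called library 2-2 (replicate 2, batch 2), and the other 3 were the same constructs of biological replicate 1, called library 1-2. Each 2-2 library was matched with the 1-2 library of its construct. The 2-2 and 1-2 libraries of K3Q were nearly identical. Whether the library labelled K3Q 2-2 is a second library of biological replicate 1 was not tested, so its values are given as a description and may not stand for replicate 2.

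The study asked how SIRT6 and its lysine mutants alter transcription in 2 lung cancer lines. Both A549 and H1299 are established human cell lines from non-small cell lung carcinomas, grown in RPMI1640 with fetal bovine serum, and A549 is widely used as a model of the alveolar epithelium. Every line was a stable lentiviral transductant. WT cells carried FLAG-tagged wild-type SIRT6, K3R and K3Q cells the mutant forms of those names, and Ctr cells the empty FLAG vector. The labels do not say whether a transductant was a pool or a clone, nor on which day, at which density or from which vial the biological replicates were grown. Library 1-1, biological replicate 1 in batch 1, shows what a change of batch brought with the replicate number held, and was also used as another comparison library.

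Proliferating cells express the genes of DNA replication and mitosis in waves set by the E2F, B-MYB and FOXM1 factors, and these genes fall together when a culture slows. A separate programme is set off when amino acids run short or unfolded protein accumulates: kinases phosphorylate the translation factor eIF2 alpha, most translation slows, and the factor ATF4 is made and switches on amino acid synthesis, uptake and tRNA charging. NF-kB and AP-1 factors drive chemokines and growth factor ligands in epithelial cells exposed to cytokines, stress or growth factors, and p53 drives the cell cycle inhibitor p21 and its own inhibitor MDM2.

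Total counts were 16434492 to 17664635 in the 2-2 libraries and 16556954 to 17603099 in the 1-2 libraries. Mitochondrially encoded transcripts took 6.04% to 6.19% of counts in the 2-2 libraries and 6.75% to 6.87% in the 1-2 libraries, and the 10 highest genes took 6.86% to 7.14% and 7.74% to 7.84%. Genes with at least 10 counts numbered 15256 to 15550 in the 2-2 and 14853 to 15117 in the 1-2 libraries. The 7 markers of simple epithelium (KRT7, KRT8, KRT18, KRT19, EPCAM, CDH1, CLDN7) were above 0 in every library and summed to 7390 to 7795 counts per 1000000 (CPM) in the 2-2 libraries and 9034 to 9859 CPM in the 1-2 libraries, and 4 of the 7 fell. In bulk RNA fewer cells of a type and less RNA per cell cannot be told apart, and the part of these values in the results below was not tested. Markers of blood cells summed to 7.43 to 11.2 CPM in the 2-2 and 9.06 to 11.2 CPM in the 1-2 libraries, and those of endothelium to less than 1 CPM in each of these libraries. Fibroblast markers summed to 13.3 to 25.3 CPM in the 2-2 and 21.3 to 26.0 CPM in the 1-2 libraries.

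SIRT6 itself, the introduced gene, had 2847 CPM in WT 2-2, 3239 CPM in K3R 2-2 and 31.4 CPM in Ctr 2-2, against 2513 CPM in WT 1-2, 2265 CPM in K3R 1-2 and 22.4 CPM in Ctr 1-2. WT and K3R libraries were far above Ctr in both replicates, as their labels say, and within each construct the 2-2 library was the higher. The matched change was 0.39 ± 0.08 on the log2 scale (SE; adjusted p = 0.00396, from edgeR's quasi-likelihood F test after Benjamini-Hochberg adjustment, as for every adjusted p below). Reads of the introduced and the endogenous gene (GRCh38 chr19:4174109-4182604, minus strand, in GENCODE 29) cannot be separated. Among the other sirtuins SIRT2 and SIRT5 rose, by 0.55 each, and SIRT1, SIRT3, SIRT4 and SIRT7 did not pass.

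Of 15882 genes tested, 2815 were higher in the 2-2 libraries (17.7%) and 2714 lower (17.1%), together 34.8%. A change of at least 2-fold was seen in 749 of the higher and 300 of the lower genes, and the median over all genes was 0.02. Counts of list members below are to be read against those shares. With construct as a term, the p-values are set against the spread of the matched change between constructs, not of the levels. That spread comes from 6 libraries, with 2 residual degrees of freedom. The labels do not say whether the constructs of a replicate number were grown on separate occasions, so that spread may be technical.

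**Figure D1:**
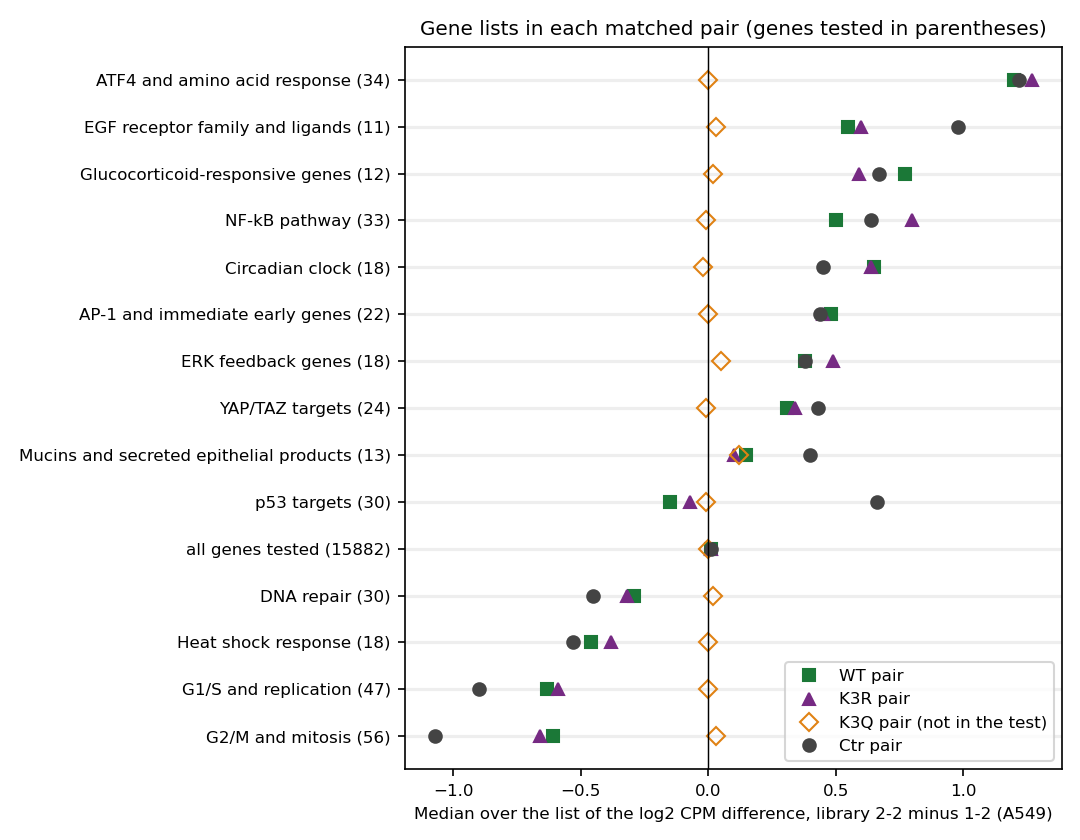
Median difference in log2 CPM between library 2-2 and library 1-2 (x axis) in each matched pair, for 14 gene lists and all genes tested (y axis). The WT, K3R and Ctr pairs (filled) lie on the same side of 0 in 13 of the 14 lists, all but the p53 targets. Those 13 were picked for their size and for a median change of at least 0.3, up or down, over these same pairs. Their agreement in sign is thus favoured by the choice. In the cholesterol list, not shown, the medians were -0.48 in Ctr, 0.01 in WT and -0.02 in K3R. The K3Q pair (open), which was not in the test, stays between -0.02 and 0.12.

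The amino acid response was the gene list with the widest rise. Of its 34 members, all of them tested, 32 rose and 0 fell, with a median change of 1.22. The stress pseudokinase TRIB3 had 683, 720 and 649 CPM in WT, K3R and Ctr of the 2-2 libraries, against 97.3, 98.9 and 96.1 CPM in the 1-2 libraries. The K3Q pair held 100 CPM in library 2-2 and 103 CPM in library 1-2, so its 2-2 library lay with the 1-2 libraries of the other constructs. For TRIB3 the change was 2.81 ± 0.07 (adjusted p = 3.25e-08). STC2, a secreted stanniocalcin, had 916, 910 and 699 CPM in WT, K3R and Ctr at 2-2 and 116, 122 and 60.8 CPM at 1-2 (3.13 ± 0.12, adjusted p = 4.65e-07). CHAC1, an enzyme that degrades glutathione, had 60.8, 64.5 and 46.2 CPM at 2-2 and 7.51, 5.38 and 4.84 CPM at 1-2 (3.28 ± 0.12, adjusted p = 4.65e-07). DDIT3, which encodes the stress factor CHOP, averaged 39.8 ± 0.48 CPM at 2-2 and 6.35 ± 0.95 CPM at 1-2 (SD, n = 3 each; change 2.65 ± 0.12). None of these 4 genes overlapped between the groups, and all 2-2 libraries lay above all 1-2 libraries in 22.8% of the genes tested.

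The mRNA of ATF4 itself changed by less than the list median of 1.22 (0.63 ± 0.07, adjusted p = 0.000139). It had 486, 488 and 427 CPM in WT, K3R and Ctr at 2-2 and 304, 304 and 299 CPM at 1-2. The enzymes of serine synthesis rose, PHGDH by 1.41, PSAT1 by 1.15 and PSPH by 1.13. Asparagine synthetase, ASNS, averaged 7.99 ± 1.04 CPM at 2-2 and 1.73 ± 0.45 CPM at 1-2 (2.21 ± 0.20). The tRNA synthetases CARS1, GARS1, AARS1, SARS1 and WARS1 rose by 0.41 to 1.27, and the amino acid transporters SLC6A9, SLC1A5, SLC7A1, SLC7A5, SLC3A2 and SLC7A11 by 0.40 to 1.35. SESN2, an amino acid sensor that restrains mTORC1, rose by 2.43, and ATF3, a factor downstream of ATF4, by 2.41. GDF15, a secreted stress signal, averaged 281 ± 19.0 CPM at 2-2 and 96.2 ± 8.5 CPM at 1-2. FGF21, a second secreted stress signal, was near the detection limit, with 31 counts in all at 2-2 and 1 count in all at 1-2, a ratio of 31.3 (exact 95% counting interval 5.22 to 1280). SHMT2 and CTH, enzymes of one-carbon and cysteine metabolism, did not pass (0.13 and -0.44). ADM2 and NIBAN1, outside the list, also ranked among the 15 largest rises at a mean log2 CPM of 2 or more. ADM2, a secreted peptide of the calcitonin family, averaged 22.2 ± 3.6 CPM at 2-2 and 2.37 ± 0.26 CPM at 1-2, and NIBAN1, a stress-induced gene, 61.5 ± 5.7 CPM at 2-2 and 8.88 ± 1.88 CPM at 1-2.

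**Figure D2:**
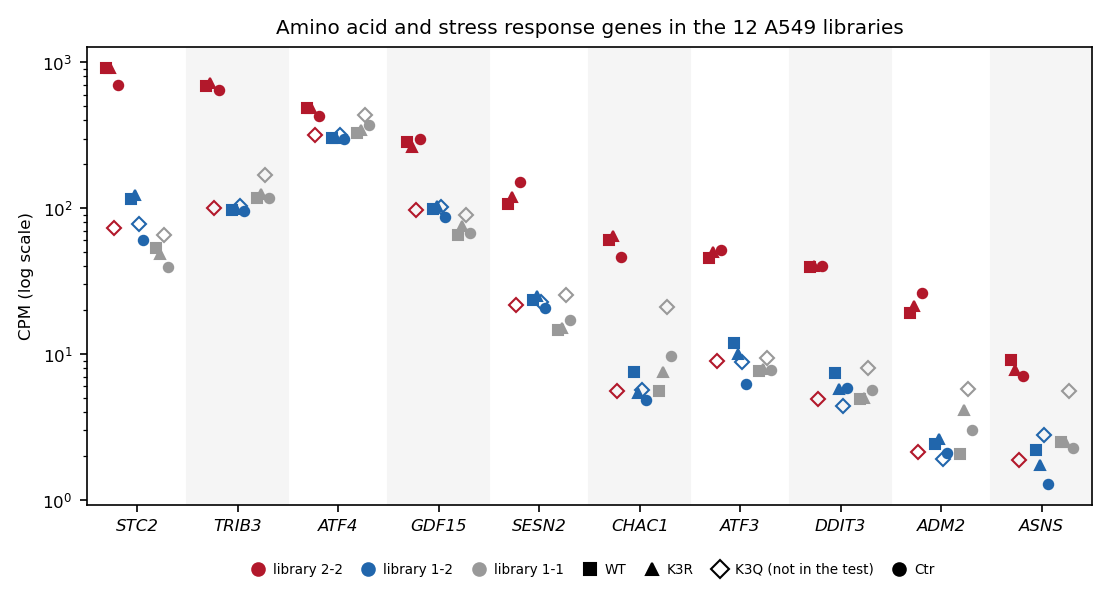
CPM (log y axis) of 10 amino acid and stress response genes (x axis) in the 12 A549 libraries, coloured by library and shaped by construct. The filled 2-2 points lie above the filled 1-2 and 1-1 points of each gene, while the open K3Q 2-2 point lies beside the 1-2 points.

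Promoter windows of 2 of these genes are shown because they hold the letters of the ATF4 element searched, TGATGNAA on either strand. The windows are the 250 bases before the start in RefSeq (GRCh38.p14), with the match in capitals. ASNS lies at chr7:97872409-97872658 (minus strand) and CHAC1 at chr15:40953221-40953470 (plus strand), where the match is on the reverse strand.
ASNS: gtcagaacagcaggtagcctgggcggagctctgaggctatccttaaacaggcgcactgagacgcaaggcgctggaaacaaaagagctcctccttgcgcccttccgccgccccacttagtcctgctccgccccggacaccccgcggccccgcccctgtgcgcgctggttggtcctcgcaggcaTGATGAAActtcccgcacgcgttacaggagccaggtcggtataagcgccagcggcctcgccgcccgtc
CHAC1: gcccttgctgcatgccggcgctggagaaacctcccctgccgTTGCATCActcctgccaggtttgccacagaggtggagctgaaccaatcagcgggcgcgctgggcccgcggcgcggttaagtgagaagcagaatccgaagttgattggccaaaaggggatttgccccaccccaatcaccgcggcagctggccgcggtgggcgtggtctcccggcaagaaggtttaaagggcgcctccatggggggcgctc
The element was in 5 of the 29 list members with a RefSeq window (17.2%) and in 3.2% of all 27305 windows, and it was chosen after seeing the changes. The 5 were ASNS, CHAC1, ATF3, FGF21 and AARS1. The windows of TRIB3, STC2 and DDIT3, among the larger rises, hold none.

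Genes of DNA replication and mitosis were lower in the 2-2 libraries of all 3 constructs. In the list of G1/S and replication genes 43 of 47 fell and 0 rose, and in the list of G2/M and mitosis 52 of 56 fell and 1, CDC25B, rose. The kinetochore checkpoint kinase BUB1 had 44.5, 43.0 and 31.3 CPM in WT, K3R and Ctr at 2-2 and 109, 112 and 84.2 CPM at 1-2 (-1.36 ± 0.08, adjusted p = 3.71e-06). The K3Q pair was at 109 CPM in library 2-2 and 103 CPM in library 1-2. SPC25 and SPC24, subunits of the NDC80 kinetochore complex, fell by 1.45 and 1.08. The proliferation marker MKI67 fell by 0.99, cyclin B1 (CCNB1) by 1.03, the mitotic kinase PLK1 by 1.02 and the anaphase activator CDC20 by 1.03. In the replication list the largest falls were in the helicase subunit GINS4 (-1.28), the origin protein ORC1 (-1.26), GINS1 (-1.15) and the ribonucleotide reductase subunit RRM2 (-1.07). Cyclin D1 (CCND1) did not pass (0.04). DNA repair genes followed in the same direction, 19 of 30 lower and 0 higher, with the nuclease EXO1 at -1.15 and the mismatch repair subunit MSH6 at -0.83.

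Windows of 2 mitotic genes are shown for the CCAAT box and for the element called CHR, whose letters were taken as TTTGAA. Capitals mark CCAAT, its reverse complement or TTTGAA. BUB1 lies at chr2:110678064-110678313 (minus strand) and SPC25 at chr2:168890431-168890680 (minus strand).
BUB1: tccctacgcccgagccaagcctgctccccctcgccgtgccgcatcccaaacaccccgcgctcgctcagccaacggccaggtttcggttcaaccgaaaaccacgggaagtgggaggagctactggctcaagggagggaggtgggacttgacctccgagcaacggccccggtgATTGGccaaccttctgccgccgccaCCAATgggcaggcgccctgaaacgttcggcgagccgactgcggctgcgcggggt
SPC25: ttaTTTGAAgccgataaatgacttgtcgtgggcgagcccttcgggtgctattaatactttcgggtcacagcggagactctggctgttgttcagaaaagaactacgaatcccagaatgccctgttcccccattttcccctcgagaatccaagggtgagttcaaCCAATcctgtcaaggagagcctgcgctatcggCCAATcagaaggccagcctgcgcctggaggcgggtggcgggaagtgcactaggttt
CCAAT was in 35 of the 47 G2/M members with a window (74.5%) and in 33.0% of all windows, and TTTGAA in 22 (46.8%) and 13.6%. In BUB1 only CCAAT was found, and in SPC25 both motifs.

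The fall of the cell cycle genes was smaller in the SIRT6 carriers, WT and K3R, than in Ctr. The G2/M median was -0.61 in the WT pair and -0.66 in the K3R pair, against -1.07 in the Ctr pair. The G1/S median was -0.63 in the WT pair and -0.59 in the K3R pair, against -0.90 in the Ctr pair. A test of the difference itself, WT and K3R jointly against Ctr, called 1479 of 16868 genes (8.77%), 926 of them with a higher change in the carriers (5.49%) and 553 with a lower one (3.28%). Of the 56 G2/M genes 38 had a higher change in the carriers and 0 a lower one, and of the 47 G1/S genes 16 and 0. The Ctr arm of this test holds 1 library at 2-2 and 1 at 1-2, which were assumed to vary like WT and K3R, so a property of 1 Ctr library and one of Ctr cells cannot be told apart.

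The change of the p53 targets was lower in the pairs of the SIRT6 carriers than in the Ctr pair. Their median was -0.15 in the WT pair, with 10 of 30 above 0, and -0.07 in the K3R pair, with 12 above 0, against 0.66 in the Ctr pair, with 26 above 0. In the test of the difference 25 of 30 had a lower change in the carriers and 0 a higher one, with a median of -0.63 beside 0.01 for all genes. CDKN1A, which encodes the inhibitor p21 (GRCh38 chr6:36676460-36687339, plus strand), had 256 CPM in WT 2-2 and 289 CPM in K3R 2-2, against 232 CPM in WT 1-2 and 238 CPM in K3R 1-2. Ctr stood at 646 CPM at 2-2, against 151 CPM at 1-2 and 174 CPM at 1-1. Ctr 2-2 was thus the highest of the 12 A549 libraries, the other 11 lying between 131 and 289 CPM, and the difference between carriers and Ctr was -1.89 (adjusted p = 5.37e-30). No spread between Ctr libraries enters this p-value or the others of the test, and whether the rise belongs to Ctr cells or to the library Ctr 2-2 cannot be told apart. CDKN1A did not pass in the comparison over the 3 constructs (0.83 ± 0.30, adjusted p = 0.0568). MDM2, the ligase that degrades p53, changed by -0.44 in the WT, -0.50 in the K3R and 0.64 in the Ctr pair (difference -1.13, adjusted p = 2.9e-12). The death receptor FAS changed by -0.38 in the WT, -0.40 in the K3R and 0.92 in the Ctr pair (difference -1.33, adjusted p = 2.6e-05), and the antiproliferative gene BTG2 by -1.20 in the WT, -0.88 in the K3R and 0.52 in the Ctr pair (difference -1.58, adjusted p = 6.5e-09). Over the 3 constructs 8 of the 30 rose and 3 fell, with GDF15 and SESN2, which are also on the amino acid response list, as the largest rises. The list's median over the 3 constructs, 0.15, became -0.10 without Ctr 1-2 and -0.11 without Ctr 2-2. With construct as a term both fits leave out the Ctr pair, so they do not show which Ctr library mattered.

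**Figure D3:**
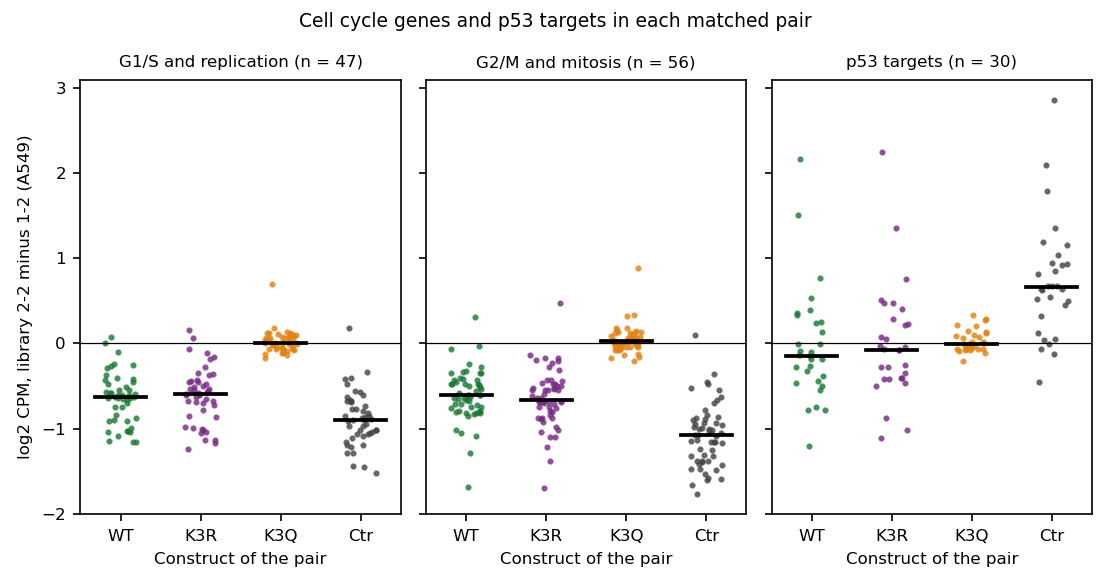
Difference in log2 CPM between library 2-2 and library 1-2 (y axis) for each tested member (points) of 3 lists, by construct of the pair (x axis), with the median as a black line. The cell cycle medians are below 0 in the WT, K3R and Ctr pairs and lowest in Ctr, the p53 targets are above 0 in the Ctr pair alone (median 0.66), and the K3Q medians lie between -0.01 and 0.03.

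The 3 lowest adjusted p in this test were those of NTRK3, DPYSL3 and HAS3 for a higher change in the carriers, and of CDKN1A, MAP1B and KYNU for a lower one. NTRK3, a neurotrophin receptor, had 16.6 CPM in WT and 19.5 CPM in K3R at 2-2, against 14.7 and 12.9 CPM at 1-2, while Ctr had 15.8 CPM at 2-2 and 66.1 CPM at 1-2 (difference 2.44, adjusted p = 1.66e-17). DPYSL3, a regulator of the cytoskeleton, had 47.2 CPM in WT and 49.4 CPM in K3R at 2-2, against 28.5 and 30.2 CPM at 1-2, while Ctr had 48.8 CPM at 2-2 and 102 CPM at 1-2 (difference 1.78). In both genes the carriers lay beside Ctr at 2-2 and far below it at 1-2. The microtubule protein MAP1B had 379 CPM in WT, 411 CPM in K3R and 486 CPM in Ctr at 2-2, against 493, 505 and 298 CPM at 1-2 (difference -1.05). KYNU, an enzyme of the kynurenine pathway, had 192 CPM in WT, 190 CPM in K3R and 202 CPM in Ctr at 2-2, against 256, 266 and 143 CPM at 1-2 (difference -0.95). For both the carriers were above Ctr at 1-2 and below it at 2-2. For HAS3, a hyaluronan synthase, the carriers had 64.6 and 75.4 CPM at 2-2 and 72.9 and 72.5 CPM at 1-2, and Ctr 45.6 CPM at 2-2 and 138 CPM at 1-2 (difference 1.53). Cholesterol genes also differed, 14 of 24 having a higher change in the carriers and 0 a lower one, with a median of 0.01 in the WT pair, -0.02 in the K3R pair and -0.48 in the Ctr pair.

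Genes of the NF-kB pathway were higher in the 2-2 libraries. Of 43 listed genes 33 were tested, of which 23 rose and 1, CSF1, fell, with a median of 0.65. Among the chemokines 6 of 7 rose, with a median of 1.55. CXCL8, a neutrophil chemokine, had 25.1, 24.3 and 7.29 CPM in WT, K3R and Ctr at 2-2 and 3.82, 3.24 and 1.47 CPM at 1-2 (2.70 ± 0.16, adjusted p = 5.43e-06). Its level was lowest in Ctr in both replicates, and the groups did not overlap. CXCL2 had 20.3, 17.9 and 13.4 CPM at 2-2 and 5.33, 5.15 and 3.67 CPM at 1-2 (1.87 ± 0.14). The pentraxin PTX3 had 4.41, 2.42 and 7.35 CPM at 2-2 and 0.12, 0.17 and 0.31 CPM at 1-2 (4.49 ± 0.36), and was highest in Ctr in both replicates. IL1A, an alarm cytokine, had 50 counts in all at 2-2 and 3 at 1-2 (ratio 16.8, exact 95% counting interval 5.44 to 84.4), and IL6 74 counts at 2-2 and 15 at 1-2 (ratio 4.98, interval 2.83 to 9.35). CX3CL1, a membrane-bound chemokine, had 70 counts at 2-2 and 10 at 1-2 (ratio 7.07, interval 3.62 to 15.4). The intervals of all 3 genes lay above 1, but they pool the 3 libraries of a group and leave out the spread between them.

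Of the 5 pathway subunits tested, RELA, RELB and NFKB2 rose, by 0.41, 0.70 and 0.85, and NFKB1 and REL did not pass. Of the 10 inhibitors and feedback genes tested 6 rose and 0 fell, with a median of 0.42. NFKBIA, the inhibitor that NF-kB itself induces, had 83.8, 77.5 and 57.5 CPM in WT, K3R and Ctr at 2-2 and 79.6, 73.2 and 62.5 CPM at 1-2 (0.02 ± 0.08, adjusted p = 0.89) and did not pass, and the deubiquitinase TNFAIP3 rose by 0.76. The adaptor TRAF1 averaged 25.1 ± 5.0 CPM at 2-2 and 7.65 ± 0.50 CPM at 1-2 (1.70 ± 0.14). The chemokine CCL2 and the antioxidant enzyme SOD2 did not pass, at 0.15 each.

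**Figure D4:**
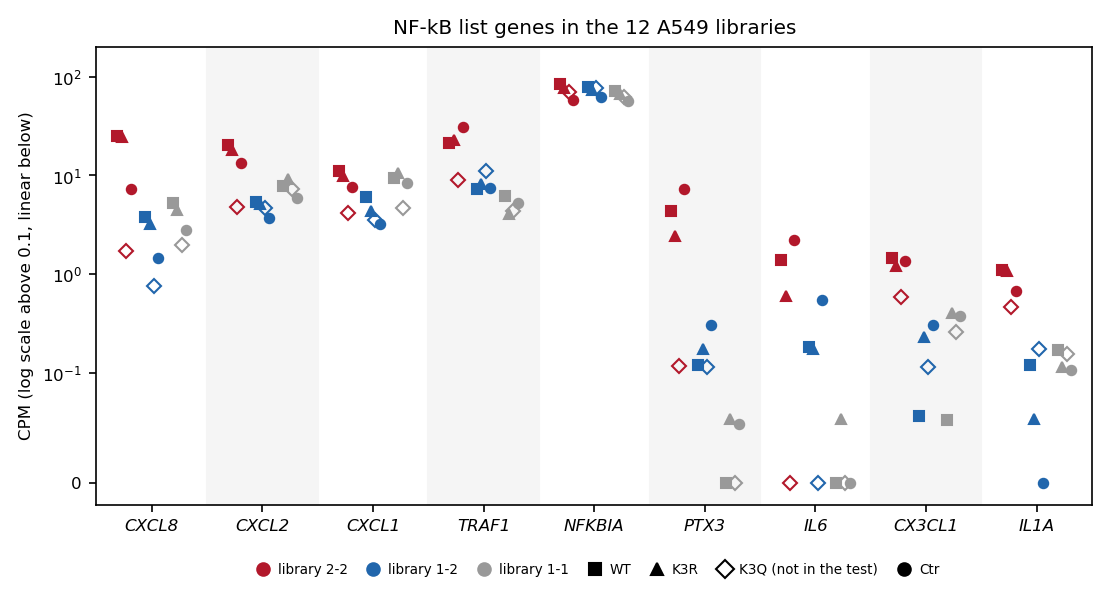
CPM (y axis, log scale above 0.1 and linear below) of 9 NF-kB list genes (x axis) in the 12 A549 libraries, coloured by library and shaped by construct. The filled 2-2 points lie above the filled 1-2 points in 8 genes and among them in NFKBIA.

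Windows of the chemokine genes CXCL8 and CXCL2 are shown with the matches to GGNNTTTCC, a core of the NF-kB site, in capitals. CXCL8 lies at chr4:73740319-73740568 (plus strand) and CXCL2 at chr4:74099196-74099445 (minus strand).
CXCL8: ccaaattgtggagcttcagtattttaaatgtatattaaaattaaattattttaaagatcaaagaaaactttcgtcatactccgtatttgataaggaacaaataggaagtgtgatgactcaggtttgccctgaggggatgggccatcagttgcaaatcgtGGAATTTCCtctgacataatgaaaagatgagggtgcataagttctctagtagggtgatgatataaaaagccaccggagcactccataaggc
CXCL2: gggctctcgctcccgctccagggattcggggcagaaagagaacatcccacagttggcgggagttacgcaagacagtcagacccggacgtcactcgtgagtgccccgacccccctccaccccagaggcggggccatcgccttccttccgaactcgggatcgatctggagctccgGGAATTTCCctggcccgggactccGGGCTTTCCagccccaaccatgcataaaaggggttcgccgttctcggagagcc
The motif was in 18 of the 35 NF-kB list members with a window (51.4%) and in 5.5% of all windows, on either strand. CXCL8 holds 1 match and CXCL2 2, and NFKBIA, which did not pass, also holds 2. The windows of PTX3, IL1A and TRAF1, which rose, hold none.

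Ligands and targets of growth factor signalling were higher as well. In the EGF receptor list 8 of 11 rose and 0 fell. The ligand TGFA had 30.9, 36.2 and 38.3 CPM in WT, K3R and Ctr at 2-2 and 10.1, 10.9 and 18.3 CPM at 1-2 (1.46 ± 0.13). The ligands EREG and BTC rose by 1.10 and 1.54, the receptor EGFR by 0.91 and its feedback inhibitor ERRFI1 by 1.43. ERK feedback genes rose in 12 of 18 and fell in 2, with SPRED3 at 1.12, SPRY1 at 1.01 and the phosphatase DUSP6 at 0.96, against the receptor EPHA4 at -1.04. Among AP-1 and immediate early genes 12 of 22 rose and 2 fell. JUN had a mean of 170 CPM at 2-2 and 75.5 CPM at 1-2 and FOSL1 of 186 CPM at 2-2 and 86.8 CPM at 1-2, while FOS did not pass (-0.25) and the nuclear receptors NR4A1 and NR4A2 fell by 0.75 and 0.70. YAP/TAZ targets rose in 14 of 24 and fell in 2. Their scaffold AJUBA had 420, 456 and 547 CPM at 2-2 and 163, 164 and 168 CPM at 1-2 (1.52 ± 0.08), and the matricellular protein CCN1 169, 159 and 217 CPM at 2-2 and 75.2, 76.1 and 67.5 CPM at 1-2 (1.31 ± 0.11).

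Clock and glucocorticoid-responsive genes were higher in the 2-2 libraries. In the circadian list 13 of 18 rose and 0 fell, with a median of 0.62. BHLHE41, a repressor of the clock, rose by 1.62, CIART by 1.46, NFIL3 by 1.24, the nuclear receptors NR1D1 and RORA by 1.19 and 1.17, ARNTL by 0.87 and PER1 by 0.79. Rises thus included both ARNTL, of the activating arm, and NR1D1, which represses it. Of 12 glucocorticoid-responsive genes 7 rose and 1, FKBP5, fell. TSC22D3, which encodes GILZ, had 67.7, 73.5 and 63.2 CPM in WT, K3R and Ctr at 2-2 and 9.39, 10.0 and 11.3 CPM at 1-2 (2.74 ± 0.10, adjusted p = 4.65e-07), KLF9 rose by 1.37, and SGK1 did not pass.

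Other single genes with large changes came from outside these groups. TXNIP, an inhibitor of thioredoxin and glucose uptake (GRCh38 chr1:145992435-145996600, minus strand), had 26.8, 29.1 and 29.7 CPM in WT, K3R and Ctr at 2-2 and 2.54, 1.85 and 0 CPM at 1-2. Over the 3 libraries this was 1482 counts at 2-2 and 74 at 1-2, a ratio of 20.2 (exact 95% counting interval 16.0 to 25.9). The pooled ratio is raised by the 0 in Ctr 1-2 and lies above that of the WT and of the K3R pair. Its interval leaves out the spread between libraries. CREB5, a factor of the CREB family, had a mean of 7.77 ± 0.83 CPM at 2-2 and 0.82 ± 0.45 CPM at 1-2 (3.26 ± 0.29), and the fucosyltransferase FUT1 of 7.64 ± 1.37 CPM at 2-2 and 0.81 ± 0.50 CPM at 1-2 (3.23 ± 0.37). SNTB1, CACNA1D, SPX and FST completed the 15 largest rises, at 2.61 to 2.96. These were ranked among genes that passed at a mean log2 CPM of 2 or more with the same direction in all pairs. Under the same rule the largest fall was in the imprinted noncoding RNA H19 (GRCh38 chr11:1995176-2001470, minus strand). H19 had 2.29, 2.66 and 0.57 CPM at 2-2 and 26.0, 22.0 and 3.80 CPM at 1-2 (-3.19 ± 0.19). RTN4RL2, a Nogo receptor homologue, had 14.9, 15.5 and 8.26 CPM at 2-2 and 129, 121 and 46.9 CPM at 1-2 (-2.88 ± 0.12). Both were lower in Ctr than in the carriers at 2-2 as at 1-2. HPDL, SVEP1, RARB, RASL11A, S1PR5, KRT4, FGB, HSPA2, STARD8, LRFN1, KCNK5, P2RY6 and ARSI followed, at -2.68 to -1.64. RARB, a retinoic acid receptor, averaged 2.36 ± 0.42 CPM at 2-2 and 11.3 ± 0.7 CPM at 1-2, and HSPA2, a chaperone of the HSP70 family, 28.9 ± 0.9 CPM at 2-2 and 98.8 ± 9.4 CPM at 1-2.

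Chaperones and genes of fatty acid synthesis were lower. In the heat shock list 13 of 18 fell and 2 rose. HSPA8, the constitutive cytosolic chaperone, had 605, 696 and 456 CPM in WT, K3R and Ctr at 2-2 and 1625, 1681 and 1527 CPM at 1-2 (-1.48 ± 0.09). The inducible HSPA1A had 24.2, 54.5 and 14.8 CPM at 2-2 and 73.1, 72.8 and 71.5 CPM at 1-2 (-1.38 ± 0.26), and reads of HSPA1A and the near-identical HSPA1B may be exchanged. The factor HSF1 and the small chaperone HSPB8 rose, by 0.31 and 0.75. Of 16 genes of fatty acid synthesis 9 fell and 0 rose. The desaturase SCD had 383, 419 and 498 CPM at 2-2 and 854, 900 and 1143 CPM at 1-2 (-1.15 ± 0.06), the factor SREBF1 fell by 0.84 and fatty acid synthase FASN by 0.84. Of 24 cholesterol genes 7 fell, 2 rose and 15 did not pass. Glycolytic genes fell in 11 of 21 and rose in 1, the hexokinase HK2, at 0.76. The fibrinogen chains FGA, FGB and FGG fell by 1.54, 1.89 and 1.78. In the endoplasmic reticulum list 6 of 20 rose and 8 fell: the sensor ERN1 and its substrate XBP1 rose by 1.79 and 1.54, the folding enzymes PDIA6 and PDIA4 fell by 0.72 and 0.62, and the chaperone HSPA5 did not pass (-0.01). Among cell cycle inhibitors 10 of 25 rose and 4 fell, and among apoptosis regulators 11 of 25 rose and 2 fell, with the BH3-only genes PMAIP1, HRK and BBC3 at 1.81, 1.33 and 0.96. The median of the apoptosis list was 0.13 in the WT pair and 0.22 in the K3R pair, against 0.47 in the Ctr pair.

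The same comparison in H1299 showed which of these changes were shared. There 1852 of 16031 genes were higher in the 2-2 libraries (11.6%) and 1553 lower (9.69%), together 21.2%. Background for the p53 targets is that H1299 cells lack p53. Of 27 p53 targets tested in H1299, 7 rose and 4 fell, with a median of 0.02 beside 0.15 in A549. The part of p53 in these changes was not tested. The difference between the lines was tested on 12 libraries and called 2385 of 17907 genes (13.3%), 961 with the higher change in A549 (5.37%) and 1424 with the lower (7.95%). In the amino acid response list 23 of 32 genes rose in H1299 and 0 fell, with a median of 0.59 beside 1.22 in A549. TRIB3 rose by 2.34 and DDIT3 by 2.25 in H1299, and neither differed detectably between the lines (adjusted p = 0.488 and 0.502). STC2 and CHAC1 rose more in A549, by 1.38 and 1.32 (adjusted p = 0.0253 and 0.0318), and GDF15 rose by 4.56 in H1299. G1/S genes fell in 35 of 47 in H1299 (median -0.36) and G2/M genes in 25 of 56 (median -0.21). The G2/M fall was the larger in A549 for 38 of 56 genes and for 0 the smaller.

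The NF-kB, YAP/TAZ and EGF receptor lists had medians of 0.65, 0.32 and 0.74 in A549, against 0.07, 0.00 and 0.13 in H1299. In H1299, 6 of 28 NF-kB genes rose and 3 fell, 1 of 23 YAP/TAZ targets rose and 4 fell, and 2 of 7 EGF receptor genes rose and 1 fell, beside 11.6% and 9.69% of all genes. In the NF-kB list 12 of 34 had a higher change in A549 against 1 with a lower. PTX3 changed by -0.22 in H1299 and by 4.72 more in A549 (adjusted p = 4.05e-06). AJUBA changed by 0.15 in H1299, 1.36 less than in A549 (adjusted p = 7.33e-06), and 12 of 24 YAP/TAZ targets had a higher change in A549 and 0 a lower one. The noncoding RNA LINC00665 and the pseudogene ZNF542P were the other genes with the lowest adjusted p for a higher change in A549, at 2.33 and 2.01. In the opposite direction stood the hypoxia-linked NDRG1 (-0.20 in A549 and 1.93 in H1299), the adhesion molecule L1CAM (-0.42 and 1.90), UAP1L1 (-0.58 and 2.04) and the mitochondrial 16S ribosomal RNA MT-RNR2 (-0.51 and 0.54). Of 13 mitochondrially encoded mRNAs 7 fell in A549 and 10 rose in H1299, and 12 had a lower change in A549. Lysosome and autophagy genes rose in 26 of 32 in H1299 and in 13 of 32 in A549, where 4 fell, among them the cathepsins CTSH (-1.05) and CTSB (-0.67).

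**Figure D5:**
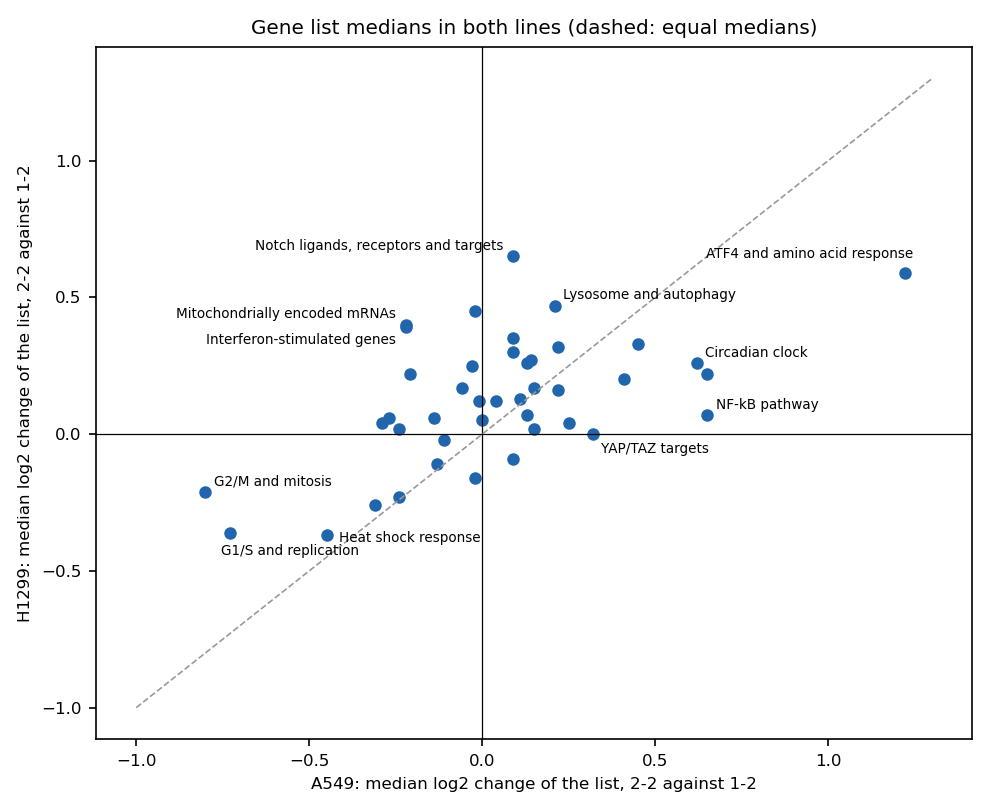
Median log2 change of 42 gene lists between library 2-2 and library 1-2 in A549 (x axis) and H1299 (y axis), with equal medians on the dashed line. The amino acid response list lies highest on the A549 axis (1.22, with 0.59 in H1299), and the mitochondrially encoded mRNAs lie below 0 in A549 (-0.22) and above 0 in H1299 (0.40).

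A change of batch at the same replicate number, library 1-2 against 1-1, also altered many genes: 2279 of 15829 were higher (14.4%) and 2104 lower (13.3%), together 27.7%. This comparison shares the 1-2 libraries with that of the replicates, so the values are given side by side and not correlated. In the amino acid response list 6 of 33 rose and 10 fell with the batch, with a median of -0.08, beside 1.22 with the replicate. TRIB3 changed by -0.30 with the batch, STC2 by 1.04, DDIT3 by 0.29 (adjusted p = 0.246) and TSC22D3 by 0.04 (adjusted p = 0.858). G1/S genes rose in 20 of 47 and fell in 0 with the batch (median 0.18). G2/M genes rose in 12 and fell in 10 of 56 (median 0.07). YAP/TAZ targets rose in 15 of 24 and fell in 1 with the batch (median 0.29, beside 0.32 with the replicate). Targets of p53 rose in 17 of 30 and fell in 0 (0.35 beside 0.15). Of 29 NF-kB genes 14 rose and 5 fell (0.27 beside 0.65). NF-kB subunits had 0.5 beside 0.41 and inhibitors 0.39 beside 0.42. Of 6 NF-kB chemokines 1 rose and 4 fell with the batch (-0.89 beside 1.55). Genes of MYC and ribosome biogenesis rose in 29 of 35 with the batch (median 0.39) and fell in 18 of 35 with the replicate (median -0.24). The fibrinogen chains were lower at both steps, FGB averaging 2.35 ± 0.81 CPM at 2-2, 8.72 ± 2.60 CPM at 1-2 and 58.9 ± 16.5 CPM at 1-1. FOSL1 was higher at both steps, averaging 186 CPM at 2-2, 86.8 CPM at 1-2 and 22.8 CPM at 1-1.

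The K3Q values restate the near-identity for which the pair was left out and compare no replicates. Between its 2-2 and 1-2 counts the chi-square over genes, per degree of freedom, was 2.60, against 36.0 in the WT, 37.8 in the K3R and 48.6 in the Ctr pair. Its list medians were 0.00 for the amino acid response and for G1/S, 0.03 for G2/M, -0.01 for NF-kB and -0.01 for p53 targets. K3Q 2-2 held 0.94 CPM of TXNIP, 10.1 CPM of TSC22D3 and 1699 CPM of HSPA8, each beside the 1-2 levels of the other constructs, and its SIRT6 level was 1582 CPM beside 1696 CPM in K3Q 1-2. With the K3Q pair added to the other 3, 4 genes passed.

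The 14 genes named earlier as changed by SIRT6 in A549, a list chosen on libraries that include these, did not share a direction: 1 rose, the kinesin KIF1A (0.85), 4 fell, EPCAM (-0.61), DHRS2 (-0.53), L1CAM (-0.42) and JCAD (-0.34), and 9 did not pass, beside 34.8% of all genes called. In the test of carriers against Ctr 1 of the 14, SFMBT2, had a higher change in the carriers (0.54, adjusted p = 0.0164), beside 8.77% of all genes called. Both counts are near those shares and give no result about the list.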

How the data were processed

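RNA-seq counts of 24 libraries were used, 12 from each line. The authors deposited counts of reads per gene symbol, unnormalised, for 59385 symbols. FastQC, cutadapt, STAR, featureCounts and the build GRCh38 are named in the submitters' processing notes. Per the labels' protocols, 1.3 μg of total RNA went into a SMARTer mRNA kit. Not given in the sources used here are tool versions, the annotation release and the strand setting, so reads of overlapping or antisense genes, and of near-identical copies, may be exchanged.

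After filterByExpr and TMM scaling, edgeR 4.0.16 in R 4.3.3 tested the counts by quasi-likelihood with construct as a term. Benjamini-Hochberg adjustment ran over all genes tested, and a gene passed under 0.05. Standard errors are the size of the change divided by √F. CPM values are TMM-scaled within a line, and differences within a pair are of log2 CPM with a prior count of 2. Counting intervals are exact, at 95%, and cover counting error only. The matched pairs come from the construct names in the labels. Deviations of the 2 libraries of a construct correlated at 0.32 in Ctr, 0.165 in WT and 0.142 in K3R.

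Simulated counts were drawn independently for each library from the fitted model, with the spread estimated there. They hold no effect shared by libraries grown together, and Ctr libraries were set to vary like the others. The false calls follow from that setting and do not give the rate in the data. With counts simulated so that 100 genes changed by each fold, the main comparison recovered 68% at 1.5-fold and 99% at 3-fold. It made 6 false calls among 15682 unchanged genes. For the difference between lines the shares were 31% and 83%, and for carriers against Ctr 52% and 90%, with 9 false calls each.

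The comparison, its members and the gene lists were chosen with earlier results of these data known. Named genes are SIRT6, the 15 largest rises and 15 largest falls among genes that passed at a mean log2 CPM of 2 or more with the same direction in all pairs, up to 4 members per list by size of change, and the lowest adjusted p of the 2 difference tests. Other list members were named after their values were seen. Alternatives were DESeq2 1.42.0, RLE scaling, leaving out the low-count filter, a test against a 1.5-fold change, no construct term, 9 libraries in one fit, library 1-1 in place of 1-2, K3Q added, and leaving out each library. Coordinates come from GENCODE 29 by symbol (359 of 366 named genes matched) and promoter windows from RefSeq.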

Additional observations from a re-analysis of the deposited data

Results flagged for a closer look

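Among the 45 genes named for the size of their change or the lowest adjusted p, 22 changed by another amount in A549 than in H1299 between library 2-2 and library 1-2, by a test of that difference over 12 libraries with an adjusted p under 0.05 (edgeR quasi-likelihood test, Benjamini-Hochberg adjustment). Genes not tested in H1299 could not count among the 22. The test called 13.3% of all genes. The 45 include genes picked for its lowest adjusted p and genes picked for a large change in A549. The count was thus partly fixed by the choice and gives no result about the 45. The change in A549 exceeded that in H1299 on the log2 scale for AJUBA by 1.36, CHAC1 by 1.32, CREB5 by 3.38, LINC00665 by 2.33, NIBAN1 by 2.27, PTX3 by 4.72, SNTB1 by 2.80, SPX by 2.07, STC2 by 1.38 and ZNF542P by 2.01. These include the stress response genes CHAC1 and STC2 and the factor CREB5. It lay below that in H1299 for ARSI by -2.38, HPDL by -2.78, HSPA2 by -1.54, L1CAM by -2.34, LRFN1 by -1.50, MT-RNR2 by -1.05, NDRG1 by -2.14, RASL11A by -2.0, RTN4RL2 by -3.79, S1PR5 by -2.56, STARD8 by -1.74 and UAP1L1 by -2.63.

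In A549, 18 of the 45 genes changed by another amount in the SIRT6 carriers than in Ctr, by the test of that difference over 6 libraries. The change in the carriers exceeded that in Ctr for DPYSL3 by 1.78, FST by 1.77, HAS3 by 1.53, KRT4 by 1.37, LRFN1 by 0.59, NTRK3 by 2.44 and SNTB1 by 1.47. It lay below that in Ctr for AJUBA by -0.29, CDKN1A by -1.89, FUT1 by -2.56, KYNU by -0.95, MAP1B by -1.05, NIBAN1 by -0.63, RTN4RL2 by -0.54, SPX by -2.15, STC2 by -0.59, SVEP1 by -2.12 and TXNIP by -8.32. The TXNIP value depends on the prior count of the fit, since Ctr 1-2 held 0 counts, and is no estimate of size. Each of these differences rests on 1 Ctr library at 2-2 and 1 at 1-2. The 45 include genes picked for the lowest adjusted p of this test, whose place here was fixed by the choice. No group here holds the 4 samples that a search for outlying samples needs.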

How the results depend on the processing

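Of 5529 calls 5431 were shared with RLE scaling, 5348 without the low-count filter, 4012 with DESeq2, 4473 without the construct term, 5478 in the fit of 9 libraries and 3835 with library 1-1 in place of 1-2, where replicate and batch change together. Direction was kept for every call in each of these except the last, in which 429 reversed. A test against a 1.5-fold change called 647 genes, 183 for the batch, 131 in H1299, 270 for the difference between lines and 82 for carriers against Ctr. With K3Q added 4 genes passed in A549 and 1919 in H1299, against 3405 there without it. DESeq2 called 2723 genes for the batch, 2230 in H1299 and 594 for carriers against Ctr. Without the construct term, which pairs the libraries, 4487 genes passed in A549 and 401 in H1299.

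Leaving out a library gave 3293 (without K3R 2-2) to 6956 (without Ctr 1-2) calls in A549, 3322 without WT 2-2, 3367 without WT 1-2 and 3409 without K3R 1-2. The range was 2582 to 4272 for the batch, 1196 to 5208 in H1299, 1135 to 2818 for the difference between lines and 1140 to 1548 for carriers against Ctr, in which a Ctr library cannot be left out. In all these fits but that of carriers against Ctr, construct is a term, so a library left without its partner no longer informs the change. Leaving out either library of a construct thus leaves out its pair, and the fits without either one are not separate checks. The cause of the shifts between constructs was not tested.

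With library 1-1 as the reference the sign reversed, among named genes that passed in either fit, for ABCC3 (-0.10), DHRS2 (0.19), FTH1 (-0.018), JCAD (0.25), LCN2 (-0.30), MAP2K6 (-0.49), MT-ATP6 (0.23), MT-ATP8 (0.31), PPARA (-0.084), S100P (-0.15) and TCF7 (0.044). List medians reversed by more than the SD of the 3 pairs for cytokine receptors (-0.12), cell cycle inhibitors (-0.11), MYC and ribosome biogenesis (0.22), lipid storage (-0.11), matrix proteases (-0.011), mucins (-1.21), lung lineage genes (-0.15) and Wnt targets (-0.083). Without the filter the medians of interferon-stimulated genes (0.067) and lung lineage genes (-0.13) reversed, and with K3Q added that of integrins (0.039). Leaving out a library turned the sign of 11 of 51 list medians in at least 1 fit. Among these were p53 targets (-0.10 without Ctr 1-2 and -0.11 without Ctr 2-2), cholesterol genes (0.024 without Ctr 1-2 and 0.021 without Ctr 2-2) and, beyond the SD of the pairs, integrins (0.27 without K3R 1-2 and 0.26 without K3R 2-2). Genes that reversed and passed in a fit were MAP1B (-0.34 without Ctr 1-2 and without Ctr 2-2, up to 0.20 without WT 2-2) and NTRK3 (0.39 without Ctr 1-2 and 0.38 without Ctr 2-2, down to -1.01 without K3R 2-2). Where values are given without either library of a construct, both leave out the same pair and are not separate checks. No paired analysis was possible by replicate number, because the numbers are the groups compared. The main analysis is paired by construct. Depth limits genes below about 1 CPM, where counts per library were few.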
